A study of Mus musculus with 40 samples.

Results

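The cytosolic ribosomal proteins are the protein components of the large (60S) and small (40S) subunits of the ribosome that translates nuclear messages. Their messages were followed in bulk RNA sequencing of mouse kidney after ischaemia-reperfusion injury, in which blood flow is stopped and then restored. Members were taken by gene symbol, as names beginning Rpl or Rps followed by a number, together with Rplp0, Rplp1, Rplp2 and Rpsa, and without pseudogenes and Rps6k kinases. The rule found 89 names in each of 3 deposited count tables, of 55862 names in the temporal table and 55866 in each of the therapy and sham tables. They comprised 43 large-subunit proteins, 31 small-subunit proteins (Rpsa included), the 3 acidic stalk proteins Rplp0, Rplp1 and Rplp2, 7 paralogues (Rpl3l, Rpl7l1, Rpl10l, Rpl22l1, Rpl39l, Rps27l and Rps4l) and 5 further copy names (Rpl6l, Rpl32l, Rps3a2, Rps3a3 and Rps12l1). Fau and Rpl36al also encode ribosomal proteins but do not match the naming rule.

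All libraries came from kidney of mice labelled C57bl/6-wt, with 4 libraries per group. In the temporal table, uninjured kidney (Control, no treatment named) was set against kidney 6, 24, 48 and 72 h after reperfusion (IRI). In the therapy table, the same Control libraries were set against injured kidney labelled AKI, taken 6 h after reperfusion, and against injured kidney of mice given human mesenchymal stromal cells from bone marrow (BM-MSC) or umbilical cord (UC-MSC), for which the labels give no sampling time. In the sham table, kidney without surgery (sham control) was set against kidney 24 h after surgery without ischaemia (sham 24 h), whose treatment field nevertheless reads IRI. The labels do not say that replicates are separate animals, so p-values measure the spread between these libraries, which may be technical.

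Ribosomal proteins are made in near-equal amounts, because each ribosome holds 1 copy of nearly every one, and their genes are among the most transcribed in growing cells. Many of their messages begin with a pyrimidine tract, the terminal oligopyrimidine (TOP) motif, through which the growth kinase mTOR controls their translation. Several members have paralogues that can replace them or that act in ribosome assembly.

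The sequences around the annotated transcription start are shown for members whose levels are described at length, since the TOP tract lies there. Each window holds 40 bases before and 15 bases after the start listed in the RefSeq table for GRCm38.p6, 5′ to 3′ on the gene's strand. Capitals mark each run of at least 6 bases that opens with C and holds only C or T, searched within 20 bases of the start. The windows lie at chr5:115559427-115559481 (Rplp0, plus strand), chr4:86857353-86857407 (Rps6, minus), chr2:32961672-32961726 (Rpl12, plus), chr3:90213634-90213688 (Rps27, minus), chr9:66946046-66946100 (Rps27l, plus, the first of 2 listed starts), chr3:28805468-28805522 (Rpl22l1, plus) and chr17:46782642-46782696 (Rpl7l1, minus).
Rplp0: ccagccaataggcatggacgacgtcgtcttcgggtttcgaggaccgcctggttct
Rps6: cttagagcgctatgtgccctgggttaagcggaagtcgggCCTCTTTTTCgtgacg
Rpl12: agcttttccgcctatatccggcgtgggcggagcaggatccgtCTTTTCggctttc
Rps27: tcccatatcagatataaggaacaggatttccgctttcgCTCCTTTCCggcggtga
Rps27l: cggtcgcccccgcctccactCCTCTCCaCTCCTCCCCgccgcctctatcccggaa
Rpl22l1: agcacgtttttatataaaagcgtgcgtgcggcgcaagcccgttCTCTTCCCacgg
Rpl7l1: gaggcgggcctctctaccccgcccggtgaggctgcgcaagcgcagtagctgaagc
Such a run was present in 39 of the 64 members matched in that table (60.94%) and in 29.41% of 27025 genes. On the opposite strand the same search found a run in 10 members (15.62%) and in 31.86% of all genes. The remaining 25 members had no matching entry. The search covered both sides of the start, so a run counted here need not lie in the message. In Rps27l both marked runs lie wholly before the start shown. For Rplp0 and Rpl7l1 the search found no such run within 20 bases of the start, and letters farther from the start were not searched.

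Counts per library entering the fits ranged from 4656775 to 18538072 in the temporal and therapy tables, with the lowest totals at 48 and 72 h, and from 26601247 to 37097091 in the sham table. Of 55861 names shared by the temporal and therapy tables, 74 carried different counts for the same Control libraries, and these with 7 further names were left out of the fits of both tables. None of the 81 was a ribosomal protein gene. They held 11.04 to 41.6% of the counts of a temporal library. Kidney epithelial markers were present in every library and fell with injury, from a summed 18020 to 21060 CPM (counts scaled to a common library total) in Control to 2268 to 2520 at 72 h. Library 1 of AKI stood apart from its group, with a Pearson correlation over genes of 0.833 to 0.842 with the others, and library 1 of IRI 6 h did so less, at 0.914 to 0.934. Library 4 of UC-MSC correlated with its group at 0.9006 to 0.9342. Correlations were low throughout IRI 48 h, at 0.8605 to 0.9096, and throughout IRI 72 h, at 0.8477 to 0.8725. AKI and IRI 6 h carry the same library names, but 0 of their library pairs had equal counts at over 90% of names.

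Ribosomal protein messages took a larger share of the counts after ischaemia-reperfusion. Over the names used in the fits, the share was 2.23% ± 0.206 (SD, n = 4) in Control, 4.18% ± 0.741 at 6 h, 6.14% ± 0.399 at 24 h, 5.06% ± 0.358 at 48 h and 5.39% ± 0.120 at 72 h. No injured library overlapped Control, whose highest value was 2.51% against a lowest of 3.65% at 6 h. With all names in the denominator the shares were 1.82% in Control, 3.65% at 6 h, 4.44% at 24 h, 3.31% at 48 h and 3.24% at 72 h. Which injured group ranked higher thus depends on the denominator, since 6 h lay below 48 and 72 h over the names of the fits and above them over all names. In bulk tissue, a change in the number of cells of a type and a change in RNA per cell cannot be told apart.

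**Figure D1:**
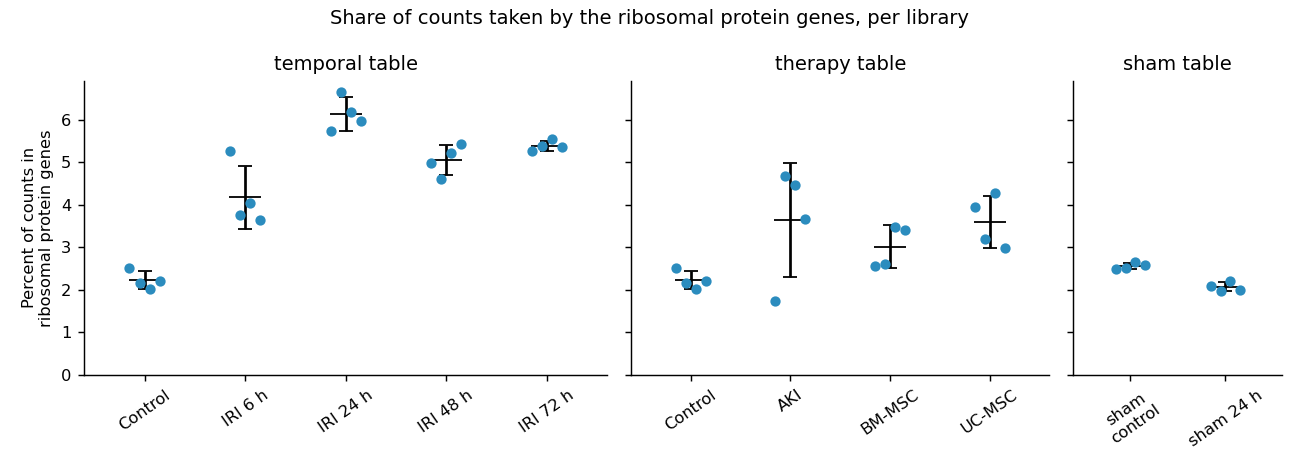
Percent of counts in the 89 ribosomal protein genes, over the names used in the temporal and therapy fits, in each library of the 3 tables. Points are libraries, and bars give the mean and SD of 4 libraries. All injured libraries of the temporal table lie above the Control maximum of 2.51%, and AKI library 1 lies at 1.73%.

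At 6 h after reperfusion, most ribosomal protein genes were already higher than in Control. Of 85 members that passed the low-count filter, 72 rose and 0 fell (edgeR's quasi-likelihood test, Benjamini-Hochberg adjusted p under 0.05), where 10.3% of 16659 genes rose and 8.52% fell. The members' median log2 fold change was 0.72, against -0.07 over all genes. By role, 29 of 31 small-subunit, 38 of 43 large-subunit and all 3 stalk genes rose, but only 1 of 5 tested paralogues. The largest rises were those of Rpl12, a large-subunit protein at the base of the stalk, Rplp2, Rpl17 and Rpsa.

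Rpl12 stood at 215, 209, 185 and 203 CPM in Control and at 753, 429, 489 and 407 at 6 h. All 4 injured libraries lay above all Control libraries, with library 1 highest. It rose by 1.36 ± 0.158 on the log2 scale (standard error; adjusted p = 1.675e-06, edgeR). Rplp0, the protein that anchors the stalk and a frequent reference gene, stood at 957, 912, 890.1 and 906 CPM in Control and at 2549, 1542, 1590 and 1415 at 6 h. The groups did not overlap, and the log2 fold change was 0.95 ± 0.152 (adjusted p = 7.941e-05, edgeR). Rps6, the 40S protein phosphorylated by S6 kinase, stood at 442, 452, 414 and 426 CPM in Control and at 967, 581, 608 and 581 at 6 h. It rose by 0.66 ± 0.151 on the log2 scale (adjusted p = 0.002902, edgeR), again with library 1 well above the other 3.

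At 24 h every tested subunit and stalk gene was higher than in Control. The call covered 43 of 43 large-subunit, 31 of 31 small-subunit and 3 of 3 stalk genes, and 80 of 85 members in all, with 0 lower. Over all genes 21.8% rose and 20.2% fell. The median log2 fold change of the members was 1.36, against 0.05 for all genes. The rise was uneven among members. Rplp2 rose from 242, 199, 208 and 205 CPM to 918, 981, 854 and 849, a log2 fold change of 2.08 ± 0.153 (adjusted p = 4.077e-10, edgeR). Rpsa, the 40S protein also known as the laminin receptor, rose from 735, 708, 678 and 685 CPM to 2510.3, 2905, 2359 and 2381, a change of 1.86 ± 0.166. Rps3, a 40S protein at the mRNA entry channel, stood at 597, 566, 502 and 519 CPM in Control and at 678, 824, 829.8 and 779.8 at 24 h. Its groups did not overlap either, but its log2 fold change was 0.51 ± 0.150 (adjusted p = 0.007998, edgeR). Rpl3, at the peptidyl transferase centre, also stood low among the members, at 0.51.

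**Figure D2:**
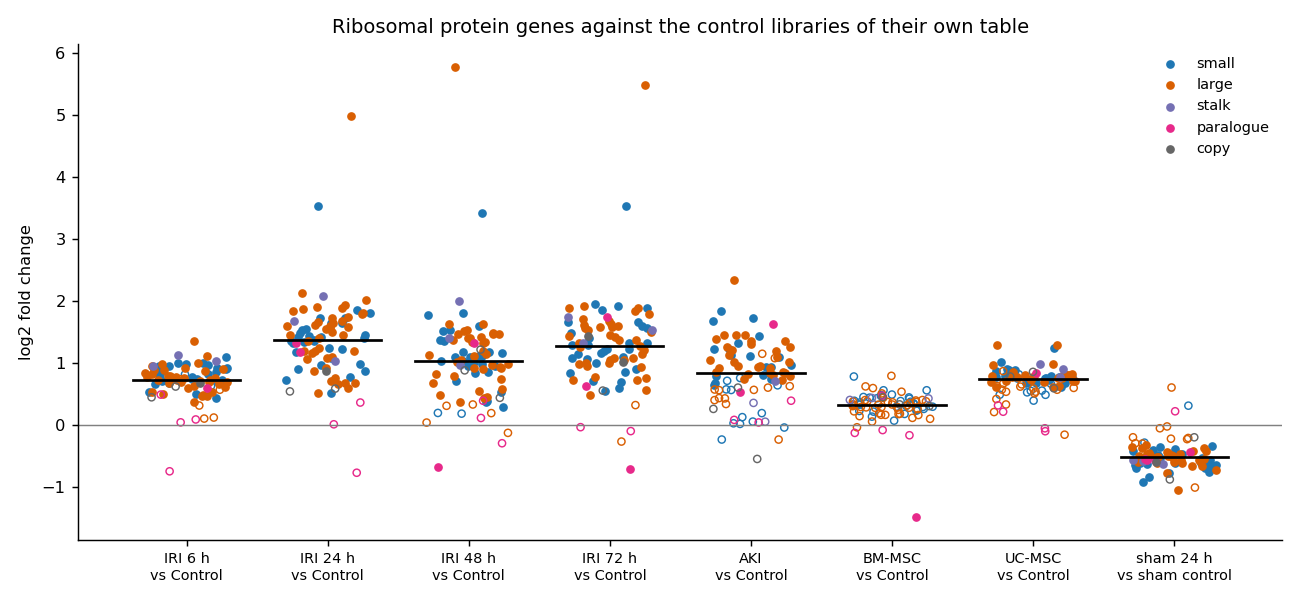
Log2 fold change of each tested ribosomal protein gene against the control libraries of its own table, with 4 libraries per group. Filled points passed an adjusted p of 0.05, open points did not, colours give the role and black lines the median. Subunit genes sit above 0 at 24 h and mostly below 0 after sham surgery, and 2 members, Rpl24 and Rps10, lie far above the rest from 24 h.

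At 48 h 71 members were higher and 1 lower than in Control (26.9% and 26.8% of all genes), with a median of 1.03. At 72 h 79 were higher and 1 lower (26.7% and 29.6%), with a median of 1.27. Between 24 and 48 h 22 members fell and 0 rose, where 12.1% of all genes fell and 9% rose, and the members' median was -0.31. The largest falls were those of Rpl7a (-1.49), Rpl30 (-1.32) and Rpl31 (-0.87), all large-subunit genes. Between 48 and 72 h 4 members rose (Rpl30, Rpl26, Rpl5 and Rps3a1) and 0 fell, against 2.03% and 3.63% of all genes, and the median was 0.25. This last count was 19 with DESeq2 and 0 when only the 2 groups were fitted. It was 1 without IRI 48 h library 1, 2 without IRI 48 h library 3 or IRI 72 h library 4, and 10 without IRI 48 h library 4. Shares over all genes in those alternative fits are not given here.

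Rplp0 stood at 2219.7, 2236, 2388 and 2249.6 CPM at 72 h, above every library at 24 and 48 h, whose highest was 1992. Across the 20 temporal libraries, Rpl9 and Rps6 were among the members most like Rplp0 in log2 CPM, with Pearson r of 0.961 and 0.956. These correlations are descriptions over libraries that share groups and scaling.

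Rpl24 and Rps10 gave fold changes that are uncertain. Rpl24 summed to 30 counts over the 4 Control libraries and to 40 at 6 h, and then to 643 at 24 h, although it encodes a core 60S protein. Its log2 fold change was 4.97 at 24 h, 5.78 at 48 h and 5.48 at 72 h. Rps10 summed to 44 counts in Control and 327 at 24 h, with log2 fold changes of 3.53, 3.42 and 3.53. At 72 h Rps10 ranged from 0 to 22.6 CPM between libraries. Both have near-identical copies in the genome among which counting can divide reads, and the part of this in their low levels was not tested.

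The paralogues did not follow the subunit genes as a block. Rpl22l1, the paralogue of Rpl22, stood at 28.6, 31.6, 21.1 and 27.3 CPM in Control, at 67.8, 59.3, 69.3 and 73.3 at 24 h and at 87.0, 103, 85.4 and 86.1 at 72 h. It rose at all 4 times, by 0.60, 1.31, 1.32 and 1.74 on the log2 scale, and its groups at 24 and 72 h did not overlap Control. Rpl22 itself rose by 0.37 ± 0.122 at 6 h (adjusted p = 0.03539, edgeR), with overlapping groups, and by 1.07, 0.94 and 1.14 at 24, 48 and 72 h, without overlap. Its call at 6 h was lost without Control library 2, 3 or 4 or IRI 6 h library 1 or 3, without the low-count filter, and with the discordant names kept. The members most like Rpl22l1 over the 20 libraries were Rps19, Rpl26 and Rps24, with r of 0.951, 0.949 and 0.948.

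Rpl7l1, a nucleolar relative of Rpl7, went the other way. It stood at 107, 108, 108 and 94.2 CPM in Control, 93.7, 104, 110 and 111 at 24 h, 72.5, 75.1, 61.5 and 52.3 at 48 h and 66.1, 60.6, 65.3 and 62.9 at 72 h. The 48 and 72 h libraries all lay below Control, with log2 fold changes of -0.68 ± 0.136 (adjusted p = 0.0002214, edgeR) and -0.71 ± 0.137 (adjusted p = 0.0001279, edgeR). It was the only member that fell against Control in the temporal table. Rps27l, the paralogue of Rps27 and a known p53 target, passed the test against Control at none of the 4 times, with log2 fold changes of 0.09, 0.36, -0.30 and -0.04. It fell between 24 and 48 h by 0.66 ± 0.176 (adjusted p = 0.0096, edgeR). Rps4l rose at 24 h (1.17), without overlap with Control, and at 72 h (0.62), with overlap. It stood at 56.8, 39.8, 22.3 and 27.4 CPM at 72 h and at 24.8, 22.6, 22.2 and 25.2 in Control. Rpl3l, the muscle paralogue of Rpl3, stayed between 0 and 6.32 CPM and passed no test in the temporal table.

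**Figure D3:**
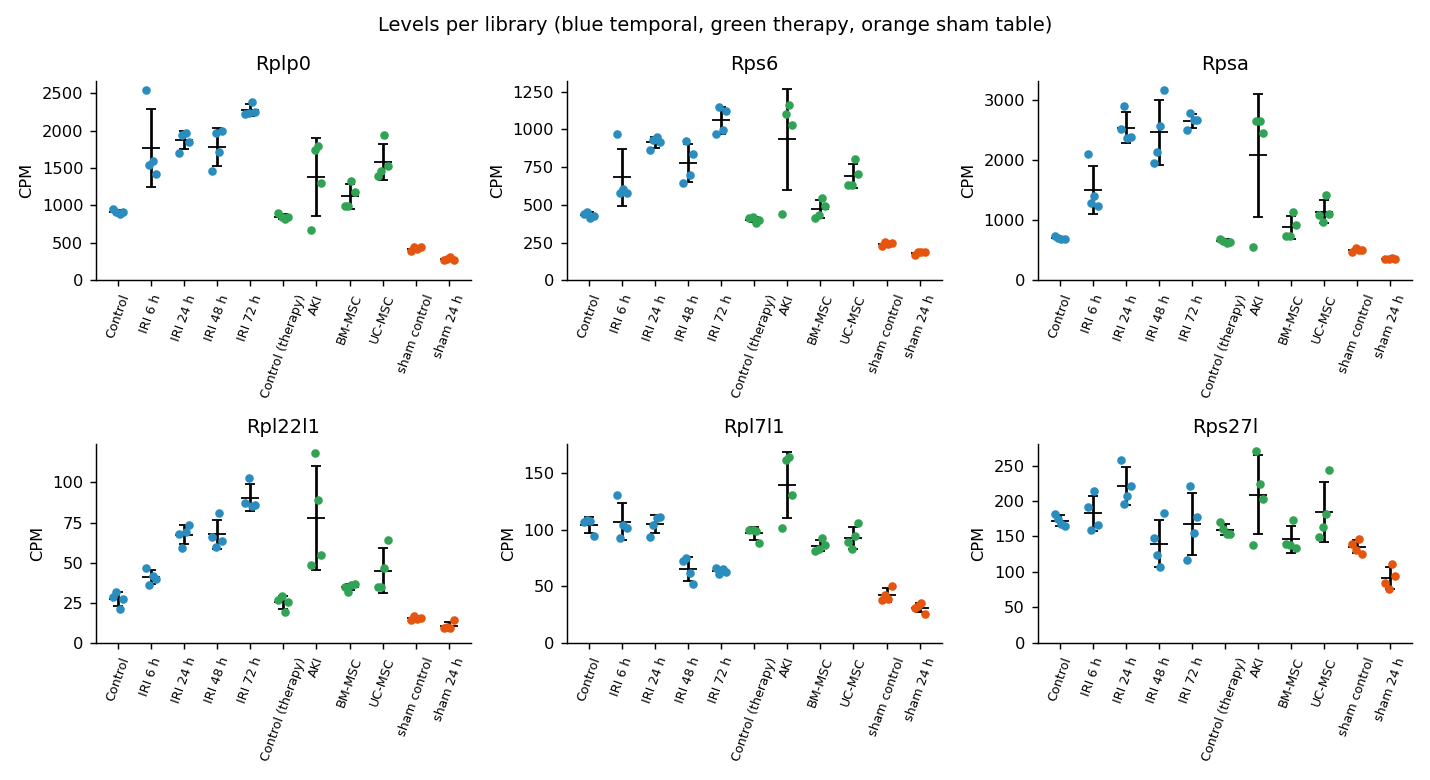
Level in CPM of 6 members in each library, with mean and SD of 4 libraries per group, blue for the temporal, green for the therapy and orange for the sham table. Levels are scaled within a table and are not comparable between tables. Rpl22l1 climbs to 85.4 to 103 at 72 h while Rpl7l1 lies below all Control libraries at 48 and 72 h.

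The filter removed 4 members in every table, namely Rpl10l and Rpl39l, whose known expression is in testis, and the copies Rpl32l and Rps12l1. Rpl10l and Rps12l1 had 0 counts in every library. At the upper end, Rpsa (1971 CPM) and Rplp0 (1724) had the highest mean CPM over the temporal libraries; CPM is not corrected for gene length.

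Genes that build ribosomes or share their translational control were listed apart from the members. Of 50 ribosome biogenesis genes, 12 rose and 0 fell at 6 h, 33 rose and 2 fell at 24 h, 22 rose and 5 fell at 48 h and 22 rose and 4 fell at 72 h. Over all genes, 10.3% rose and 8.52% fell at 6 h, 21.8% and 20.2% did at 24 h, 26.9% and 26.8% at 48 h, and 26.7% and 29.6% at 72 h. Nop56, a core protein of box C/D particles that guide rRNA methylation, rose by 1.17 at 6 h and 2.47 at 24 h, while Utp20, of the small-subunit processome, fell by 0.93 at 24 h. Of 22 elongation and other TOP genes, 14 rose and 3 fell at 24 h, among the latter Eef1a1 (-0.33), Eef2 (-0.52) and Eif4b (-0.80), which carry TOP tracts. Of 16 genes that control ribosome synthesis, 4 rose and 2 fell at 24 h, close to the shares over all genes, and the list's median was 0.05. Among its single genes, Myc, the transcription factor that drives ribosome production, rose by 3.28 and Eif4ebp1, a translation repressor under mTOR, by 3.12, while Mtor fell by 2.19.

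Markers of other cells moved over the same times. At 6 h, 4 of 5 tested neutrophil, 7 of 12 macrophage (1 lower), 4 of 8 fibroblast and 7 of 7 dividing-cell markers were higher. In the same order, 24 h gave 3 of 5, 3 of 12 (1 lower), 1 of 8 (2 lower) and 3 of 7. The counts at 48 h were 4 of 5, 2 of 12 (1 lower), 4 of 8 (2 lower) and 6 of 7. Those at 72 h were 4 of 5, 3 of 12 (3 lower), 4 of 8 (1 lower) and 6 of 7. Control libraries held 19.4 to 40.6 CPM of summed dividing-cell markers, against 169.1 to 539.4 after 6 h. The sum then lay between 41.7 and 87.7 after 24 h, and was higher again, between 132.7 and 267.4, after 48 h. Lymphocyte markers summed to 5.78 to 14.4 CPM in Control and 5.17 to 9.66 at 24 h, with 0 of 6 called at 6 or 24 h. Mitochondrial rRNA took 0.180 to 0.219% of counts in Control and 1.57 to 1.997% at 24 h. The part of these shifts in the ribosomal protein levels was not tested.

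Sham surgery without ischaemia gave the opposite direction. At 24 h after sham surgery 69 of 85 members were lower and 0 higher than in sham control, where 13.1% of 17781 genes were lower and 7.7% higher. The median log2 fold change was -0.53, against 0.04 over all genes. The lower members comprised 29 of 31 small-subunit, 33 of 43 large-subunit and 3 of 3 stalk genes. Rplp0 stood at 385, 442, 418 and 437 CPM in sham control and at 273, 280, 304 and 267 at 24 h. The groups did not overlap, with a log2 fold change of -0.58 ± 0.0933 (adjusted p = 0.0002749, edgeR). Rps27a, which encodes ubiquitin fused to a 40S protein, fell from 91.1, 147, 122 and 87.7 CPM to 63.7, 65.1, 65.9 and 54.3, by 0.84 ± 0.146 (adjusted p = 0.0005248, edgeR). The paralogues Rpl22l1 (-0.55), Rpl7l1 (-0.43) and Rps27l (-0.57) fell with them, while Rpl13a, at -0.03, did not pass the test.

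The members' share of all counts was 1.62% ± 0.0727 (SD, n = 4) in sham control and 1.07% ± 0.113 at 24 h. Over only the names used in the temporal and therapy fits, it was 2.56% ± 0.0705 and 2.07% ± 0.102, without overlap. The 81 names left out of the other tables, chiefly mitochondrial messages here, took 32.9 to 39.3% of counts in sham control and 44.3 to 51.4% at 24 h. With those names removed from the sham fit, an alternative chosen after seeing the data, 70 members were lower. The share over all genes in that alternative is not given here. Of the 22 elongation and TOP genes 17 fell and 0 rose, with Tpt1 at -0.85 and Eef1a1 at -0.70, whereas of 50 biogenesis genes 8 fell and 2 rose.

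The ischaemic and sham changes at 24 h were compared in a joint fit, also chosen after seeing the data. In it 83 of 85 members had a higher change after ischaemia than after sham surgery and 0 a lower one, where 24.8% of 18567 genes were higher and 20.1% lower. The median difference was 1.97, against 0.12 over all genes. Rplp2 differed by 2.80 ± 0.140, Rps27a by 2.57 ± 0.254 and Rplp0 by 1.70 ± 0.128. Rpl7l1, not called at 24 h after ischaemia, differed by 0.53 ± 0.154 (adjusted p = 0.006779, edgeR). Rpl3l and Rps3a3 did not pass. The fit set each change against the controls of its own table, and levels were not compared between tables.

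**Figure D4:**
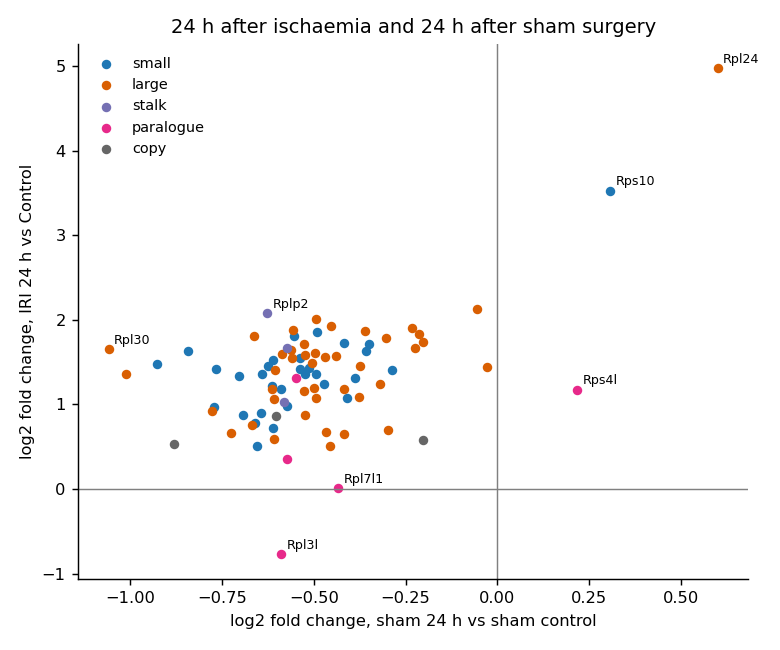
Log2 fold change of each tested member 24 h after ischaemia-reperfusion against Control (vertical axis) and 24 h after sham surgery against sham control (horizontal axis), 4 libraries per group, with colours for the role. Most members lie in the upper left, higher after ischaemia and lower after sham surgery.

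In the therapy table the AKI libraries were higher than Control at 53 of 85 members, and unevenly so. These 53 rose and 0 fell, where 20% of 16639 genes rose and 15% fell, with a median of 0.83 against 0.06 over all genes. Rpl17 rose from 84.9, 56.6, 59.7 and 55.0 CPM to 176, 388, 272 and 459.5, a log2 fold change of 2.34 ± 0.311 (adjusted p = 6.284e-05, edgeR). Rps24 (1.83) and Rpsa (1.68) also rose, whereas Rps3 (-0.24), Rps19 (0.01), Rps18 (0.02) and Rplp1 (0.05) did not pass the test. In the IRI 6 h libraries, set against the same Control libraries, Rps3 and Rps19 stood at 0.72 and 0.81. Rpsa stood at 549, 2649.6, 2654 and 2457 CPM in AKI and at 686, 655, 620 and 642 in Control, so that library 1 lay below Control and the other 3 far above. Mitochondrial rRNA took 2.39% of counts in AKI library 1, 0.944 to 1.14% in the other 3 and 0.180 to 0.219% in Control. The names left out of the fits held 22.01% of counts in that library and 10.2 to 15.2% in the others, and the part of either in the members' levels was not tested. Without AKI library 1, 71 members rose, with a median of 1.02, and the share over all genes in that refit is not given here. Only 10 of 85 members had AKI libraries wholly above Control, against 15.8% of all genes. Of the 50 biogenesis genes 42 rose and 1 fell, led by Nop58 (2.08), Ncl (2.05) and Nop56 (2.04).

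**Figure D5:**
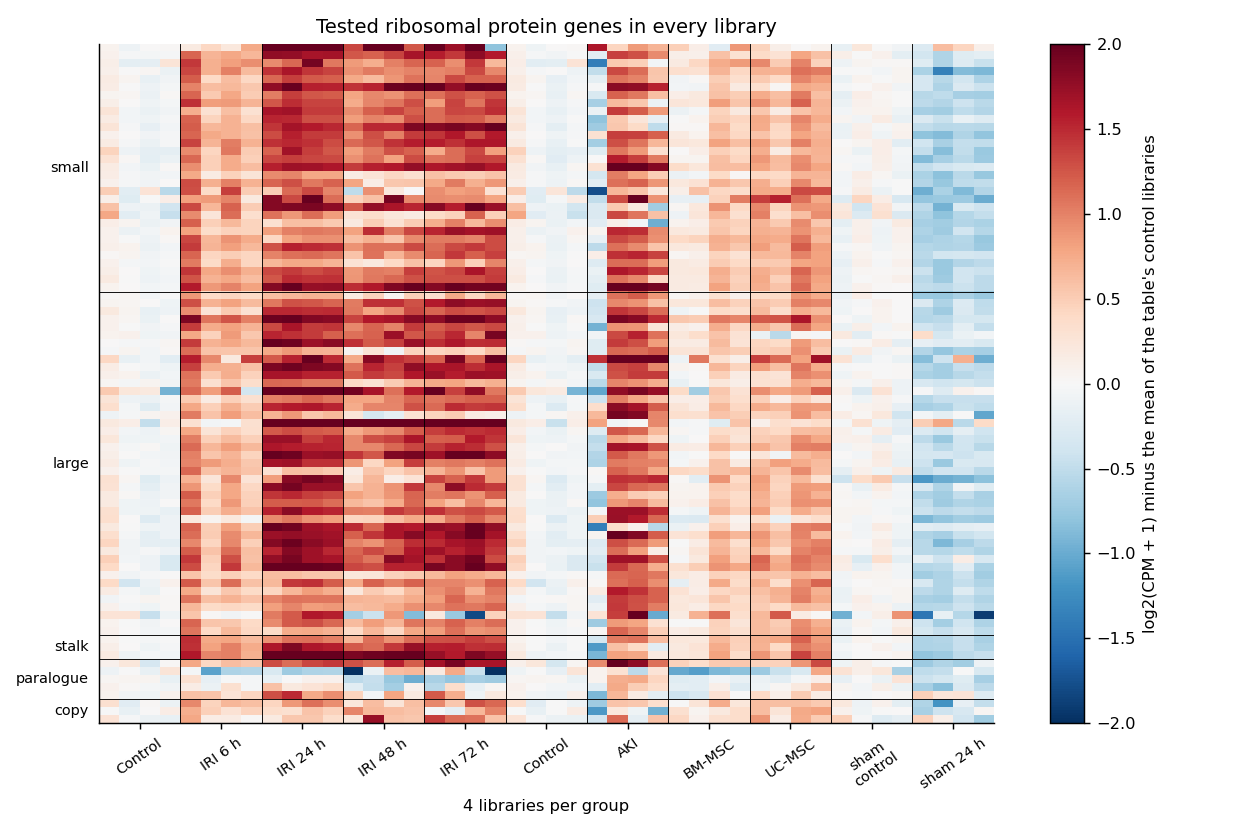
Each tested member (rows, by role) in each library (columns), as log2(CPM + 1) minus the mean of the control libraries of the same table, with colours capped at 2 in either direction. AKI library 1, the first AKI column, is at or below Control at many members, and sham 24 h is below sham control at most.

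In kidneys that received BM-MSC, 0 members were called higher and 1 lower than in Control by edgeR, against 6.56% and 2.36% of all genes, and 5 members had an unadjusted p under 0.05. The median was 0.33, and 80 of 85 estimates were positive. Rplp0 stood at 993, 988, 1329 and 1177 CPM against 894, 843, 814 and 849 in Control, all higher but at an adjusted p of 0.343 (edgeR). The main fit estimated the spread over all groups of the therapy table, AKI library 1 included, so the lack of calls does not show equal levels. When only the 2 groups were fitted, 22 members were higher, and the share over all genes in that fit is not given here. The lower member was Rpl3l, at 1.01, 0.901, 1.18 and 1.30 CPM against 2.84, 3.04, 2.64 and 3.90, a log2 fold change of -1.49 ± 0.405 (adjusted p = 0.03103, edgeR). That call was lost when any one of the 8 libraries was left out.

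With UC-MSC, 53 members were higher and 0 lower than in Control (20.4% and 16.7% of all genes), with a median of 0.74. Rplp0 stood at 1393, 1459.8, 1935 and 1530.3 CPM, all above Control, a log2 fold change of 0.89 ± 0.248 (adjusted p = 0.01056, edgeR). Rpl12 (1.28), Rpl17 (1.28), Rps27a (1.23) and Rps27 (1.01) rose most, and Rpl22l1 rose by 0.84. The count was 20, 15 or 19 without Control library 2, 3 or 4, 15 without UC-MSC library 3 and 32 without UC-MSC library 4. The median stayed between 0.67 and 0.79 over all 8 such fits. The count was 30 with upper-quartile scaling. For all these alternative fits the shares over all genes are not given here, so whether the counts exceed their background is not shown.

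Against AKI, 31 members were lower and 0 higher with BM-MSC, where 17.1% of all genes were lower and 16.3% higher, with a median of -0.56. Rpl17 (-1.94), Rpl3l (-1.57), Rps24 (-1.37) and Rpl35a (-1.34) fell most, and Rpl7l1 fell by 0.70. The count was 64 without AKI library 1, 14 without AKI library 2 or 3 or BM-MSC library 1 or 2, and 18 without AKI library 4. It was 10 when only the 2 groups were fitted. For these refits the shares over all genes are not given here, so whether the counts exceed their background is not shown. The biogenesis genes stood lower as well, 39 of 50, with 1 higher.

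With UC-MSC against AKI, 8 members were higher and 9 lower, where 20.3% and 20.1% of all genes were. The members' shares were thus below the background in both directions. Higher were Rps3a2 (1.33), Rpl36 (1.06), Rps3 (0.92) and Rps28 (0.81), and lower were Rps10 (-1.34), Rpl13a (-1.28), Rpl35a (-1.09) and Rpl17 (-1.06). Rps3a2 and Rps10, which lead these lists, had low levels. Rps3a2 stood at 0.77, 3.51, 2.68 and 1.00 CPM in AKI and at 4.97, 3.65, 5.64 and 5.85 with UC-MSC. Rps10 stood at 4.20, 1.28, 2.04 and 1.71 CPM in AKI and at 1.31, 0.83, 0.69 and 0.77 with UC-MSC, with overlap, and was highest in AKI library 1. Rpl13a stood at 17.4, 12.9, 19.6 and 18.7 CPM with UC-MSC and at 18.1, 49.5, 57.7 and 41.9 in AKI, overlapping through AKI library 1. Without that library 39 members were lower and 5 higher, but the share over all genes in that refit is not given here. These counts thus have no background beside them. Both cell-treated comparisons share the AKI libraries. The summed neutrophil markers ranged from 6.43 to 27.5 CPM in AKI, 16.8 to 419.9 with BM-MSC and 53.9 to 588.8 with UC-MSC. Against AKI, 7 of 8 fibroblast, 7 of 7 dividing-cell, 6 of 12 macrophage, 4 of 5 neutrophil and 3 of 8 epithelial markers were higher with BM-MSC, with 1 fibroblast and 1 epithelial marker lower. With UC-MSC, 7 of 8 fibroblast, 2 of 7 dividing-cell, 6 of 12 macrophage and 5 of 5 neutrophil markers were higher than in AKI, with 1 macrophage and 1 epithelial marker lower. The summed fibroblast markers ranged from 269.4 to 411.1 CPM in AKI, 1785 to 3417 with BM-MSC and 658.6 to 2385 with UC-MSC. Lymphocyte markers summed to at most 10.5 CPM in any of these libraries, with 0 of 5 called with BM-MSC and 1 of 5 higher with UC-MSC. AKI itself differed from Control, with 0 of 8 fibroblast markers higher and 4 lower, while IRI 6 h had 4 higher and 0 lower. Dividing-cell markers were above Control at 1 of 7 in AKI and 7 of 7 in IRI 6 h. Set against Control, 4 of 8 fibroblast markers were higher with BM-MSC and 6 of 8 with UC-MSC, with 0 lower in either. For dividing-cell markers it was 7 of 7 and 3 of 7. The part of these markers in the members' differences was not tested.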

How the data were processed

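Total RNA of 40 kidney samples was sequenced, and the authors deposited 3 tables of raw counts per gene, with HTSeq and DESeq2 and the builds GRCm39 and mm39 named in the submitters' processing notes. Aligner and strand setting are not given in the sources used here. Counts were summed per gene name, with rows repeated by a join taken once. The 4 sham control columns were mapped to their group only. Each table was fitted separately with edgeR 4.0.16 (R 4.3.3; TMM scaling, filterByExpr, quasi-likelihood test, two-sided, Benjamini-Hochberg adjustment over all genes tested, threshold 0.05), with all its groups sharing 1 estimate of the spread; scripts were tested on simulated data. CPM used TMM-scaled library sizes. DESeq2 1.42.0, other scalings, no filter, 2-group fits, a replicate block and left-out libraries were alternatives. Correlations between libraries used log2(CPM + 1) of names with a mean above 3. Members, lists and tests were chosen with earlier results of these data known. Named members were 20 set sentinels, the 7 paralogues, in each comparison the called members that rose or fell most (at most 4 each way), the filtered and the lowest and highest members; Rpl24, Rps10, Rpl36, Rps3a3 and Rps24 beyond these comparisons were named after their values were seen. The 5 copy names were set apart from the subunits after the tables were read. Some named items are not reported here.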

Additional observations from a re-analysis of the deposited data

Results flagged for a closer look

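Dixon's criterion at its 95% critical value was applied in 70 tests, each of 1 member over the 4 libraries of 1 group. In 8 of them a library lay far from the others. Independent tests would give about 1 in 20 by chance, but these share libraries and are not independent. Library 1 of IRI 6 h was highest for Rplp0 at 2549 CPM (others 1415 to 1590.2) and for Rps6 at 967.4 CPM (others 580.8 to 607.5). Library 1 of AKI was lowest for Rpsa at 549.3 CPM (others 2457 to 2654). Rpl7l1 was lowest in Control library 4 at 94.21 CPM (others 106.8 to 108.3). Rpl22l1 was highest in IRI 72 h library 2 at 103 CPM (others 85.39 to 87.04) and in sham 24 h library 4 at 14.4 CPM (others 8.985 to 9.882). Rps27l was highest in BM-MSC library 3 at 173.2 CPM (others 133.1 to 139.5), and Rps6 was lowest in sham 24 h library 1 at 164.9 CPM (others 184.8 to 188.2).

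The change at 24 h after ischaemia differed from the change at 24 h after sham surgery, by a test of the difference itself in edgeR, at 83 members, all with the higher change after ischaemia.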

How the results depend on the processing

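No member named reversed its direction with a call under the alternatives run. Shares over all genes are not given for these alternatives, so their counts have no background beside them. Leaving out 1 library at a time gave 65 to 75 members higher at 6 h, 80 at 24 h, 68 to 71 at 48 h (1 to 2 lower), 75 to 79 at 72 h (1 lower), 20 to 29 lower from 24 to 48 h, 1 to 10 higher from 48 to 72 h, 39 to 71 higher in AKI, 0 lower with BM-MSC against Control, 15 to 44 higher with UC-MSC against Control, 14 to 64 lower (0 to 2 higher) with BM-MSC against AKI, 6 to 39 lower and 4 to 11 higher with UC-MSC against AKI, 64 to 71 lower after sham surgery and 82 to 83 higher in the joint fit. Fitting only the 2 groups gave 1 member lower at 24 h, 1 higher from 24 to 48 h, 0 higher from 48 to 72 h, 22 higher with BM-MSC against Control, 10 lower with BM-MSC against AKI, and 1 higher and 3 lower with UC-MSC against AKI. From 48 to 72 h, 19 were higher with DESeq2, 7 with its size factors within edgeR and 2 without a filter. Upper-quartile scaling gave 30 higher with UC-MSC against Control, and 20 lower and 1 higher with BM-MSC against AKI; the latter had 1 higher with DESeq2 and 1 with the discordant names kept. The cause was not tested. Upper-quartile scaling moved the median of all genes by 0.17 at 24 h, 0.23 at 48 h, 0.26 at 72 h, -0.12 in AKI and 0.11 for BM-MSC against AKI, and DESeq2's size factors by 0.10 at 48 h, 0.13 at 72 h and 0.10 from 24 to 48 h. Same-numbered libraries did not deviate together (no comparison had all 4 pairs over a correlation of 0.1), and the numbers share no stated source; with a replicate block, 74 members were higher at 6 h, 80 at 24 h, 44 in AKI and 2 from 48 to 72 h. Every library correlated best with its own number in no comparison. No paired analysis was possible for the sham table because its control columns are tied to the group only. Low totals at 48 and 72 h, down to 4656775 counts, limit the low members, such as Rpl3l and Rps10.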
